A study of Mus musculus with 24 samples.

Results

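Accessible chromatin was described at the loci of 34 genes that encode parts of the epidermal junctions: 9 desmosomal cadherins, 6 desmosomal plaque genes counted with Perp, 5 adherens junction genes, 10 tight junction genes and 4 gap junction genes. A region belonged to these loci when an ATAC-seq peak of any list overlapped the body of one of the genes or the 20000 bp on either side of it (GENCODE M21, GRCm38, protein-coding genes). All 34 genes were found in the annotation, and the rule gave 420 of the 134385 regions of the series. Of these, 299 held a peak in vivo, among 95293 such regions, and 353 held a peak in culture, among 96852. In 13 cases a region lay in the windows of 2 genes and was counted once. The nearest transcription start belonged to a junction gene for 334 regions and to some other gene for 86.

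ATAC-seq, in which a transposase cuts open chromatin, was carried out on 24 mouse samples in 12 groups of 2. In vivo, epidermal stem cells (EpdSCs) were sorted from back skin of male CD1 mice carrying K14rtTA and TRE-myc-Sox9, so that doxycycline (DOX) switched on Sox9 in cells with an active Krt14 promoter. D0 mice were at postnatal day 21 and had no DOX, and W1, W2 and W6 mice were at days 28, 35 and 63, after 1, 2 and 6 weeks of DOX. W12 cells came from grafted skin after 12 weeks, which per the study's methods was neonatal skin on immunocompromised hosts, so that time and tissue source cannot be told apart at W12. Each replicate pooled several male mice, again per the methods. The gate kept CD34-negative, Ly6A-high and CD49f-high cells and removed those with CD31, CD45, CD117 or CD140a. Cultured EpdSCs, grown in low-calcium medium from newborn pups, carried K14rtTA with TRE-myc-Sox9 and were kept without DOX (noDOX) or given DOX at 1 µg per ml (WT-SOX9). The label of the WT-SOX9 list names D3. The other cultures, all with K14rtTA and the same DOX dose, carried SOX9 that lacked the HMG domain through which it binds DNA (ΔHMG-SOX9), SOX9 that lacked the transactivation domain (ΔTA-SOX9), the dominant-negative FOS construct TRE-FLAG-AFOS (AFOS), TRE-myc-Sox9 with TRE-FLAG-AFOS (SOX9+AFOS), or TRE-myc-Sox9 with TRE-ARID1a (SOX9+ARID1a). No uninduced list matched the last 5 arms, and the methods give lentiviral delivery for the added constructs.

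Desmosomes are spot junctions in which transmembrane cadherins, the desmogleins and desmocollins, bind their counterparts on the neighbouring cell and are tied through plakoglobin, plakophilins and desmoplakin to keratin filaments. Adherens junctions link classical cadherins through catenins to actin and also hold nectins. Tight junctions seal the space between granular cells with claudins and occludin held by scaffold proteins, and gap junctions join the cytoplasm of neighbouring cells through connexin channels. In the epidermis, desmoglein and desmocollin isoforms change between basal and suprabasal layers, and loss of desmosomal or claudin function is known to break the skin barrier.

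The sequences below show 1 region for each way in which a junction region changed, namely the one with the highest score (in a tie for Jup) among the regions that touched no exon and lay outside the desmosomal cadherin cluster and the Ctnna1 locus, whose sequences are not shown. Each is the central 300 bases of the region, on the plus strand of GRCm38 as given by RefSeq, from chr13:38143655-38143954 (gained by W2 and kept, 7489 bp upstream of the Dsp start), chr2:59176774-59177073 (gained after W2, in a Pkp4 intron), chr4:127359906-127360205 (lost by W2 and not regained, 1875 bp upstream of the Gjb5 start), chr11:100393764-100394063 (closed by WT-SOX9, in a Jup intron) and chr7:65393083-65393382 (opened by WT-SOX9, in a Tjp1 intron). Capitals mark the letters searched on both strands. For SOX factors these were ACAATAG or ACAATGG. The AP1 letters were TGAGTCA, the letters of GATA factors were AGATAA and those of RUNX factors were TGTGGT. For GRHL factors they were AACNGGTT, with any base at N.
Dsp: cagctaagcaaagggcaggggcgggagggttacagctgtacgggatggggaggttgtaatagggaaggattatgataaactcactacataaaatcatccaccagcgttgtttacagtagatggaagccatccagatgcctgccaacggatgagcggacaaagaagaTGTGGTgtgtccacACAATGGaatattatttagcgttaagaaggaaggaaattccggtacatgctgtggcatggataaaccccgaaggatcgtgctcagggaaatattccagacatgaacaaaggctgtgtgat
Pkp4: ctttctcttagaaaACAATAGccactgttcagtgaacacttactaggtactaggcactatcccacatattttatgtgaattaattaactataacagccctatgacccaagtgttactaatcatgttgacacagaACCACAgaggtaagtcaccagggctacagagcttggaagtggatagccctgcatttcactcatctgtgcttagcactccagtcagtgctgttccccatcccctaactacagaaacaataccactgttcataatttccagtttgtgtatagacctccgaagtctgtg
Gjb5: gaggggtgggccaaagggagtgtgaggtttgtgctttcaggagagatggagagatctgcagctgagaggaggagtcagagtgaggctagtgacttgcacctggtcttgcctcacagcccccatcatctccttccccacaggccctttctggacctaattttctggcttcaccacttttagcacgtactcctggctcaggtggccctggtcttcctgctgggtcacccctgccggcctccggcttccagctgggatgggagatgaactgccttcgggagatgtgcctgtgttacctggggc
Jup: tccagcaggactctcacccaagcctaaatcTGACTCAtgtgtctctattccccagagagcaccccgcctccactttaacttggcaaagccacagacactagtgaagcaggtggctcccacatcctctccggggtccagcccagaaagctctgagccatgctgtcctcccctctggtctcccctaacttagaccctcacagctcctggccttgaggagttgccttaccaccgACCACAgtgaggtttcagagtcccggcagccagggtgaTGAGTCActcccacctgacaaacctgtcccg
Tjp1: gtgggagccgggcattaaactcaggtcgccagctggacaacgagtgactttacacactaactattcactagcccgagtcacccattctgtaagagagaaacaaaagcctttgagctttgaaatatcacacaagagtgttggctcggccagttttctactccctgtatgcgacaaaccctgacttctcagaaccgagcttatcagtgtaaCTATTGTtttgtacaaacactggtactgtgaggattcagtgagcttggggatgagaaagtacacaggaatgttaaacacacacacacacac

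The Dsp sequence held ACAATGG at bases 181 to 187 and TGTGGT at 167 to 172, and the Tjp1 sequence held CTATTGT, the SOX letters on the other strand, at 210 to 216. Pkp4 held ACAATAG at 15 to 21, outside the central 200 bp used for counting, and ACCACA at 135 to 140. Jup held AP1 letters at 31 to 37 and at 270 to 276, both outside that central window, and ACCACA at 232 to 237. None of the 5 sets of letters was found in the Gjb5 sequence. Of the 300 bases, 47 were soft-masked as repeats in Dsp, 30 in Tjp1, 22 in Gjb5, 19 in Pkp4 and 0 in Jup. Over all junction regions, the central 200 bp held the SOX letters in 23 of 420 (5.48%, against 6.07% of all regions), AP1 in 76 (18.1% against 19.4%), GATA in 42 (against 10.7% of all regions), RUNX in 55 (13.1% against 16.5%) and GRHL in 13 (3.10% against 2.60%). These matches describe letters and were not tested as binding sites.

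The authors merged both replicates of a group before peak calling, so each group gave 1 list, no value below has a replicate check, and all comparisons are descriptions of lists without a test. Peaks per list ranged from 49458 (SOX9+AFOS) to 75956 (W6), and read depth is unknown. The score is the authors' normalized peak score with a minimum of 3. It was scaled within each list, so a score set beside that of another list is only a rough guide, while regions are ranked by it within a list. A region is called open in a list when at least 1 peak of that list overlapped it. In a pooled population, fewer cells with an open site and less opening in each cell cannot be told apart. All 5 basal keratinocyte markers (Krt5, Krt14, Trp63, Itga6 and Itgb4) had a peak at a start site in every list and none of 3 immune markers did in any. Of the other lists of markers, 0 to 2 of 2 endothelial, 1 or 2 of 3 fibroblast, 2 or 3 of 4 melanocyte and 0 to 2 of 2 hair follicle stem cell genes had such a peak, the last at 0 from D0 to W2 and at 2 at W6 and W12. Their part in the results was not tested. As a check on the labels, peaks lying at least 80% within exons away from the gene start were counted. The Sox9 gene had 1 or 2 at D0, W2, W6 and W12 and none at W1, so the classes that use W1 were also counted without it. The highest score was 13.5 at uninduced D0, 15.1 at W2, 9.22 at W6 and 8.84 at W12. In culture, noDOX had 1 (3.71), AFOS 0, SOX9+AFOS 1 (5.11) and SOX9+ARID1a 1 (3.71). This count therefore cannot tell induced from uninduced cells. WT-SOX9, ΔHMG-SOX9 and ΔTA-SOX9 had 0 such Sox9 peaks. In these 3 lists a wide peak crossed introns from the first exon on, so that this count does not apply. Arid1a had 6 in the SOX9+ARID1a list (highest score 21.9) but also 6 in the AFOS list (8.69) and 6 in the SOX9+AFOS list (7.86). The labels of the AFOS and SOX9+AFOS cultures name no ARID1a construct. The other 9 lists had 0 or 1, with scores up to 7.47.

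**Figure D1:**
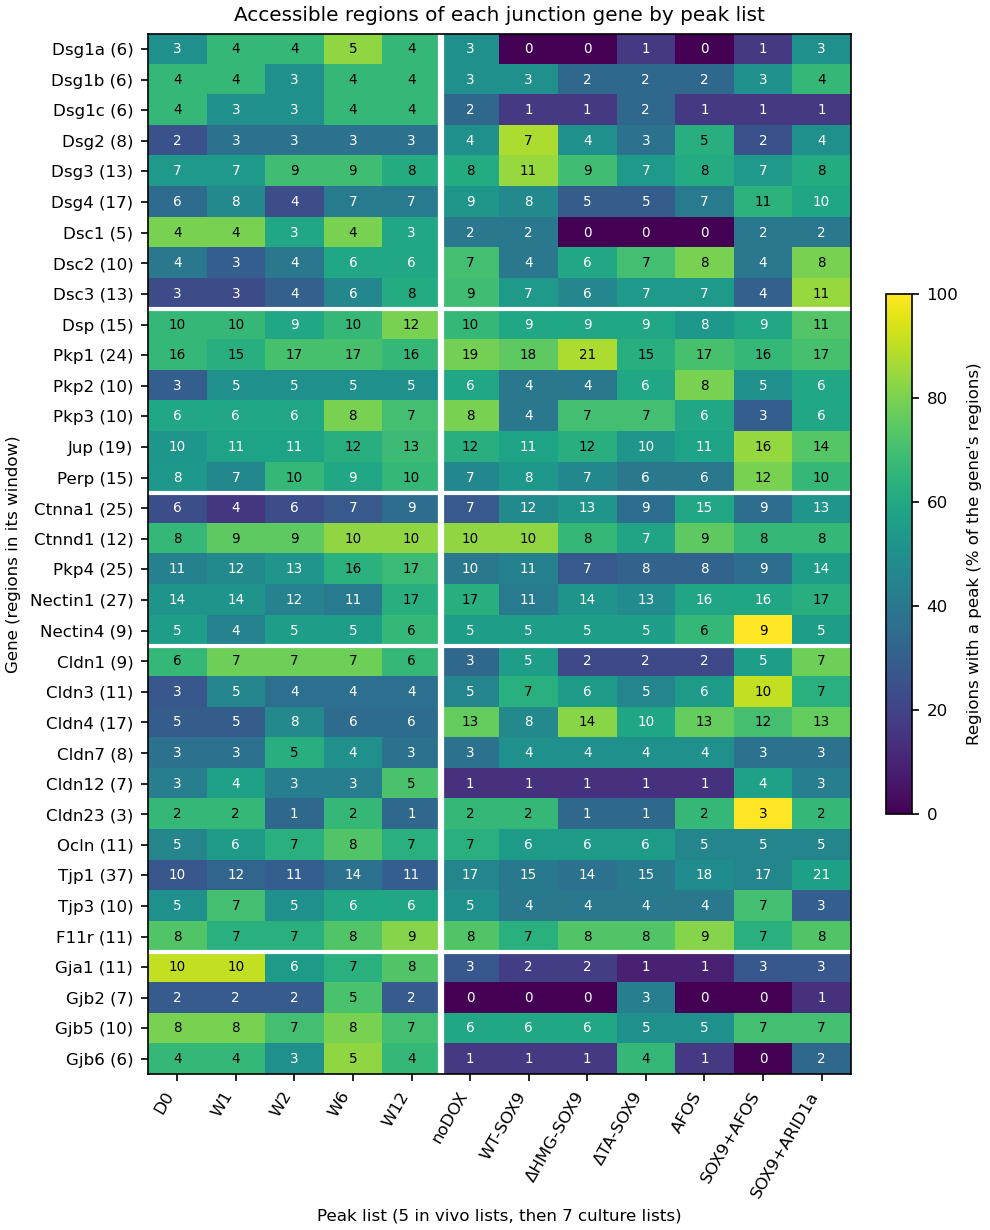
Number of accessible regions (digits) of each of the 34 junction genes in each of the 12 peak lists, with colour giving the share of the gene's regions (in brackets) that had a peak, white lines separating the 5 junction groups and in vivo from culture. Gja1 had 10 regions at D0 and 6 at W2, Dsg1a had 3 regions in noDOX and 0 in WT-SOX9, and Nectin4 and Cldn23 had all of theirs, 9 and 3, in SOX9+AFOS.

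Of the in vivo classes given here, static was the most common at the junction loci. Of the 299 in vivo regions, 154 had a peak in all 5 lists, a share of 51.5% (95% Wilson interval 45.9 to 57.1, counting error only), against 38.2% of all regions. Leaving out W1 gave 56.3% against 43.5%, and changed the shares gained by W2 and kept to 8.74% (against 9.74% of all regions) and gained after W2 to 4.55% (against 7.93%). Of the junction regions more than 1000 bp from a start, 44.3% were static, against 30.7% of all such regions. Static shares were highest in the desmosomal plaque group (45 of 72, 62.5%) and lowest in the desmosomal cadherins (22 of 56, 39.3%), with adherens (32 of 63), tight (40 of 80) and gap junction regions (15 of 28) in between.

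Losses by W2 that were never regained were few, 9 of the 202 regions open at D0 (4.46%, interval 2.36 to 8.25) against 9.9% of all regions. They lay at Tjp1 (3), Gja1 (2), Gjb5, Dsc1, Cldn4 and the interval between Dsg1b and Dsg4 (1 each), while no region of the desmosomal plaque or adherens groups was lost in this way. The Gjb5 region scored 21.3 at D0 and 16 at W1 and had no peak in any later or cultured list. A Tjp1 intron region (64487 bp from the nearest Tjp1 start) scored 11.4 at D0 and 14.7 at W1, and a Dsc1 intron region 9.35 and 7.68, again with no peak afterwards. At W1, 8 of the 9 still had a peak, the Cldn4 region being the exception. None of the 9 had a peak in noDOX cells (0 of 9, which allows up to 29.9% by the Wilson interval), against 8.38% of all regions lost in this way. With a common minimum −log10 q-value of 14.5 in all in vivo lists the share was 13.4%, against 19.9% of all regions, and at scores of at least 5 it was 9.52% against 10.5%, so that both its size and its distance from all regions rest on the threshold. In D0 the lost regions were weaker (median score 7.69, range 3.01 to 21.3) than the 167 D0 regions kept at W2 (median 13.9, range 3.01 to 97.2).

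Gains by W2 that were kept numbered 22 of 299 (7.36%, interval 4.91 to 10.9), near the 8.02% of all regions. With the common q minimum the share was 3.56%, against 3.80%. Desmosomal cadherins held 7 of the 22, plaque genes 3, adherens genes 4, tight junction genes 8 and gap junction genes 0. The strongest at W2 lay 3705 bp upstream of Dsc3, the basal desmocollin, and scored 19.1 at W2, 13.1 at W6 and 9.55 at W12, and in culture 4.51 in WT-SOX9 and 4.35 in SOX9+ARID1a only. The Dsp region shown above scored 14.3, 11.6 and 5.82 at W2, W6 and W12, and 10.9 in WT-SOX9, 12.4 in SOX9+AFOS and 5.09 in SOX9+ARID1a, with no peak in noDOX, ΔHMG-SOX9, ΔTA-SOX9 or AFOS. A region downstream of Perp, a tetraspan desmosomal protein, scored 14.1, 7.09 and 14.1 and had 1 cultured peak, 5.16 in WT-SOX9. In culture, all 3 were without a peak in noDOX, ΔHMG-SOX9, ΔTA-SOX9 and AFOS and had peaks only in arms with full-length SOX9.

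In culture, a noDOX peak was present for 13 of these 22 regions (59.1%, interval 38.7 to 76.7), against 36.5% of all regions of the class. For 2 of them, chosen after their values were seen for their noDOX scores, a Tjp1 intron region scored 5.85 at W2 and 18.8 at W6 and 49.1 in noDOX, and a region 11940 bp from the Dsg3 start scored 3.11 at W2, 16.2 at W12 and 38.9 in noDOX. Of the other 9, 6 had a peak in WT-SOX9 (66.7%, interval 35.4 to 87.9), against 32.2% of all such regions. Among junction regions absent at D0, W1 and in noDOX that were not in this class, 23 of 118 (19.5%) had a WT-SOX9 peak, near the 21.1% of all such regions. SOX letters were found in 4 of the 22 gained regions and AP1 letters in 9 (40.9%), against 11.5% and 23.9% of all regions gained by W2 and kept.

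Gains after W2 were 12 of 299 (4.01%, interval 2.31 to 6.88), against 6.9% of all regions. With lists of equal length they were 6 of 276 (2.17%, against 4.09%). They were made up of 5 at desmosomal cadherins, 2 at plaque genes, 4 at adherens genes, 1 at Tjp1 and 0 at gap junction genes. A region in the Dsg4 window, nearest to the Dsg3 start, scored 13.2 at W6 and 13.6 at W12, and was open in every culture list but SOX9+AFOS, from 6.78 in WT-SOX9 to 35.6 in ΔHMG-SOX9. The Pkp4 intron region shown above scored 9.45 and 15.2, and in culture 11.8 in ΔTA-SOX9 and 5.56 in SOX9+ARID1a. The third, near Dsg1c, scored 7.2 and 4.61 and had no cultured peak. A noDOX peak was present for 6 of the 12, against 39.2% of all regions of the class.

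Between successive lists, losses at junction loci were below those over all regions in each interval. From D0 to W1, 18 of 202 regions closed (8.91%, against 12.7%) and 27 of 97 absent ones opened (27.8%, against 20.4%). With the common q minimum the balance of this first interval turned, with 6 regions opened and 29 closed, while W1 to W2 had 18 and 58 and W6 to W12 had 55 and 3. From W1 to W2, 43 of 211 closed (20.4%, against 24.7%) and 42 of 88 opened (47.7%, against 43.7%). From W2 to W6, 11 of 210 closed (5.24%, against 10.9%) and 38 of 89 opened (42.7%, against 51.8%). With lists of equal length this interval had 24 opened and 23 closed. From W6 to the grafted W12 skin, 28 of 237 closed (11.8%, against 18.7%) and 33 of 62 opened (53.2%, interval 41.0 to 65.1, against 40.8%). At scores of at least 5 this opened share was 36.8%, against 35.6%, and with lists of equal length 37.5%, against 31.0%. The W1 to W2 losses were spread unevenly, with 14 of 57 tight junction, 10 of 34 desmosomal cadherin and 8 of 23 gap junction regions closing but 5 of 54 at plaque genes. At W12 the opening regions included 12 of 14 adherens junction regions absent at W6, of which 6 lay in the window of Nectin1.

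**Figure D2:**
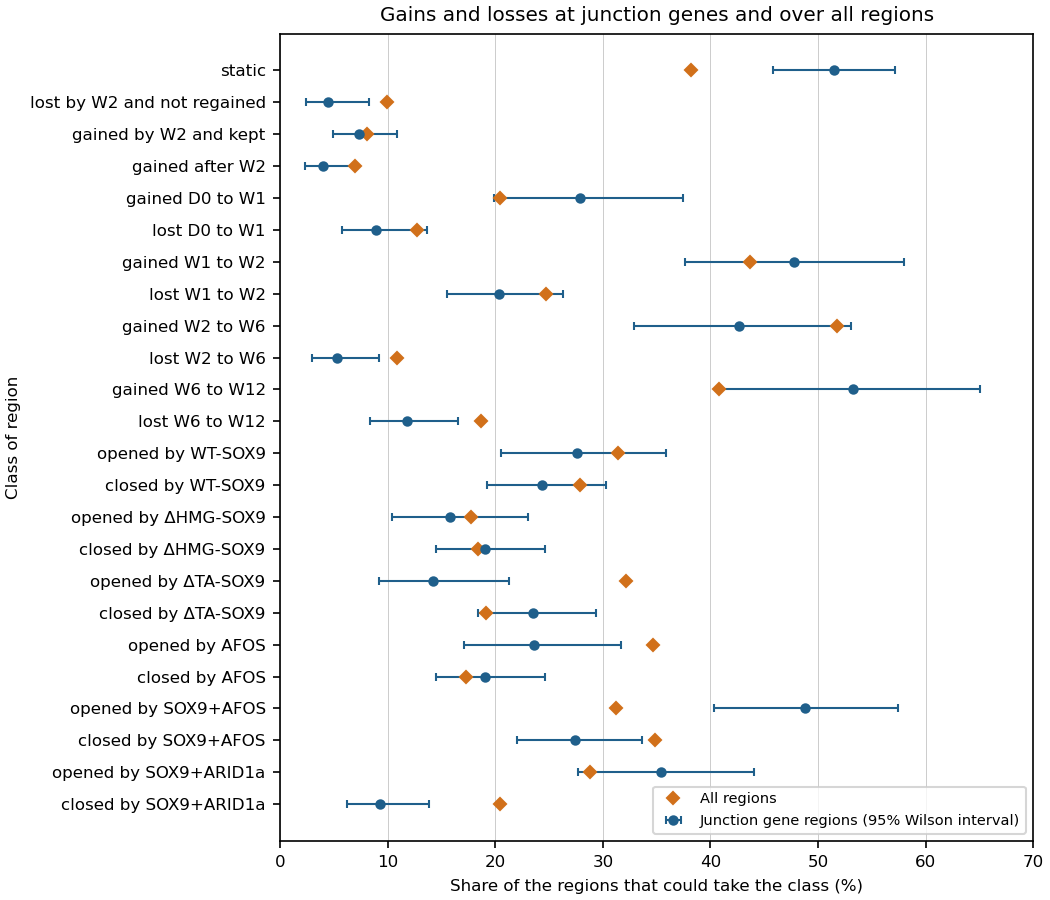
Share (%) of junction gene regions in each class (circles, with 95% Wilson intervals for counting error) beside the share over all regions (diamonds). The static share, 51.5% against 38.2%, and the share opened by SOX9+AFOS, 48.8% against 31.2%, lie to the right of the value over all regions, and the share closed by SOX9+ARID1a, 9.29% against 20.5%, lies to the left.

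A region centred within 1000 bp of a start was found for 33 of the 34 genes (none for Dsg1c), and 23 of the 33 had a peak in all 12 lists (69.7%, interval 52.7 to 82.6), near the 66.7% of the 14344 protein-coding genes with such a region. The other 10 lacked a peak in at least 1 list. For genes with more than 1 such region, scores are those of the region nearest a start unless stated. Dsg3, the basal desmoglein, scored 31.4 at D0 and 27.4 at W1, and 51.3, 46.1 and 47.2 in the lists from W2 to W12. In culture it scored 65.3 in noDOX, 95.9 in WT-SOX9, 78 in ΔHMG-SOX9, 48.3 in ΔTA-SOX9, 76.3 in AFOS, 99.1 in SOX9+AFOS and 90.1 in SOX9+ARID1a. Its 3 lists from W2 on were all above D0 and W1. Dsg1a, a desmoglein of differentiating layers, ran the other way in vivo, with 34.9 at D0 and 23.7 at W1 against 8.98, 8.82 and 11.1 in the 3 later lists. In culture it scored 10.1 in noDOX, 8.05 in SOX9+AFOS and 7.73 in SOX9+ARID1a and had no peak in the other 4 lists. The Dsg1b start followed the same pattern, with 17.8 at D0 and 17.2 at W1, no peak at W2 and scores of 7.89 and 8 at W6 and W12, and in culture 8.41, 8.47 and 12 in the same 3 lists and no peak elsewhere. Dsg1a and Dsg1b are close copies, and how reads that fit both were placed was not examined here.

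Dsc1, the desmocollin of upper layers, had start peaks of 8.76 to 20.4 in vivo, highest at W2, and none in culture. The connexin genes Gjb2 (9.61 to 16.9) and Gjb6 (12.6 at D0 and 4.91 at W1, no peak at W2, then 4.08 and 4.42) likewise had start peaks only in vivo, as did Cldn7 (3.57 to 5.85, none at W12), so that 4 genes had the region nearest a start open in skin alone. A further start region of Ctnnd1, 346 bp from a start, also had peaks only in vivo (3.80 to 7.90), as did 1 of Tjp3. Skin and culture differed in age, medium, sorting and, in the lists with DOX, time on DOX, which cannot be told apart here. Cldn3 had no start peak in noDOX, SOX9+AFOS or SOX9+ARID1a and scored 11.2 in WT-SOX9. Pkp2, a plakophilin, had low start peaks at W1 (4.09) and W2 (3.76) and in all cultures but SOX9+ARID1a (3.73 to 9.03). Dsg4, a hair and upper-layer desmoglein, had 1 weak start peak, 3.9 in WT-SOX9. At Tjp3, the region 119 bp from a start had a peak in all lists but SOX9+ARID1a. A second, 136 bp from a start, had peaks in the in vivo lists alone (4.06 to 9.04). The Gjb5 start, open in all 12 lists, scored 10 in noDOX, and its lowest and highest values were 3.89 in WT-SOX9 and 35.1 in SOX9+AFOS.

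**Figure D3:**
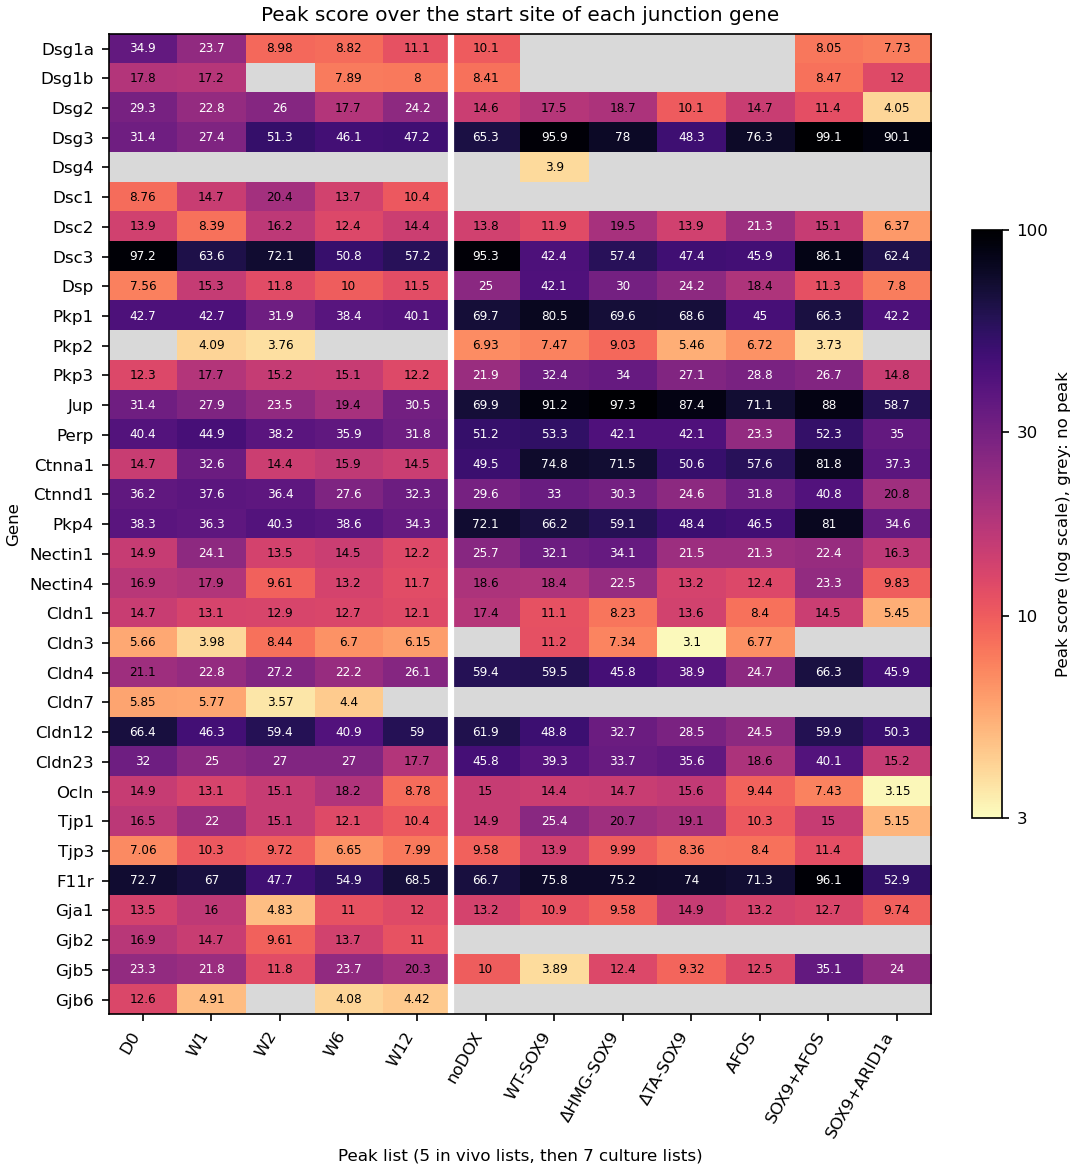
Peak score (log colour scale, value printed, grey where the list had no peak) of the region nearest the start site of each junction gene in the 12 lists, for the 33 genes that had one. Dsg1a and Dsg1b lose colour between D0 and W2 and are grey in WT-SOX9, ΔHMG-SOX9, ΔTA-SOX9 and AFOS, while Dsc1, Cldn7, Gjb2 and Gjb6 are grey in all 7 culture lists.

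Among the desmosomal cadherins, the 75 regions had 33 or 34 open in the lists up to W2 and 43 open at both W6 and W12. The longer W6 and W12 lists also had more regions open genome-wide, with 40.5% of all regions open at D0, 53.2% at W6 and 50.5% at W12, against 44.0%, 57.3% and 57.3% of the cadherin regions, so the counts by gene that follow carry this difference between lists. Dsg2, which is widely expressed in simple epithelia, had 2 or 3 of its 8 regions open in vivo, 4 in noDOX and 7 in WT-SOX9. Dsg3 had 7 of its 13 at D0, 9 at W2 and 11 in WT-SOX9. Dsg4 had 17 regions, with 6 at D0, 4 at W2 and 11 in SOX9+AFOS. Dsg1a had 3 to 5 of 6 open in vivo and 0 in WT-SOX9, ΔHMG-SOX9 and AFOS, Dsg1b 3 or 4 of 6 in vivo, and Dsg1c 3 or 4 of 6 in vivo and 1 or 2 in culture. Dsc2 had 3 to 6 of 10 open in vivo, Dsc3 had 3 of 13 at D0 and 8 at W12, and Dsc1 had 3 or 4 of 5 in vivo and 0 in ΔHMG-SOX9, ΔTA-SOX9 and AFOS.

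Of the plaque genes, Dsp, the desmoplakin gene that ties the plaque to keratin, had 9 to 12 of its 15 regions open in vivo and 8 to 11 in culture. Jup, which encodes plakoglobin, had 10 to 13 of 19 in vivo and 16 in SOX9+AFOS. Pkp1 had 15 to 17 of 24 in vivo and 21 in ΔHMG-SOX9, Pkp2 3 to 5 of 10 in vivo and 4 to 8 in culture, Pkp3 6 to 8 of 10 in vivo but 4 in WT-SOX9 and 3 in SOX9+AFOS against 8 in noDOX, and Perp 7 to 10 of 15 in vivo and 12 in SOX9+AFOS. In the adherens group, Ctnna1 (α-catenin, which binds actin) had 4 to 9 of 25 open in vivo, 7 in noDOX, 12 in WT-SOX9 and 15 in AFOS. Ctnnd1, the catenin bound to the cadherin tail at the membrane, had 8 to 10 of 12 in vivo, Pkp4 had 11 of 25 at D0 and 17 at W12, Nectin1 had 11 to 17 of 27 in every list, and Nectin4 4 to 6 of 9 in vivo.

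Of the tight junction genes, the scaffold gene Tjp1 had the most regions, 37, with 10 to 14 open in vivo and 14 to 21 in culture. Tjp3 had 5 to 7 of 10 in vivo, Ocln (occludin) 5 to 8 of 11 in every list, and F11r, a junctional adhesion molecule, 7 to 9 of 11 in every list. Cldn1, the claudin whose loss is known to make mouse skin leak, had 6 or 7 of 9 open in vivo, 3 in noDOX, 5 in WT-SOX9, 2 in ΔHMG-SOX9, ΔTA-SOX9 and AFOS, 5 in SOX9+AFOS and 7 in SOX9+ARID1a. Cldn4 had 5 to 8 of 17 in vivo and 13 in noDOX against 8 in WT-SOX9, Cldn3 3 to 5 of 11 in vivo and 10 in SOX9+AFOS, Cldn7 3 to 5 of 8 in every list, Cldn12 3 to 5 of 7 in vivo and 1 in noDOX, and Cldn23 1 or 2 of 3 in vivo. Gap junction loci held 31 regions, with 17 to 23 open in vivo (54.8 to 74.2%) but 7 to 12 in culture (22.6 to 38.7%). Of all regions, 40.5 to 53.2% were open in the in vivo lists and 35.7 to 43.7% in the culture lists. Gja1, the most widespread connexin gene of skin, had 10 of 11 regions at D0 and W1, 6 to 8 in the later in vivo lists, fewest at W2, and 1 to 3 in culture. Gjb5 had 7 or 8 of 10 in vivo and 5 to 7 in culture. Gjb2 had 2 of 7 in vivo except at W6 (5), and 0 or 1 in culture except in ΔTA-SOX9 (3). Gjb6 had 3 to 5 of 6 in vivo and 0 to 4 in culture.

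In culture, WT-SOX9 closed 55 of the 226 junction regions open in noDOX (24.3%, interval 19.2 to 30.3), against 27.9% of all regions, and opened 35 of the 127 absent ones (27.6%, interval 20.5 to 35.9), against 31.4%. These 127 had no noDOX peak but a peak in some DOX arm, here and for the arms below. Closing was most frequent at desmosomal cadherins, 16 of 42 regions (38.1%), of which 5 lay in the Dsc3 window, against 13 of 62 at plaque genes, 10 of 49 at adherens genes, 14 of 63 at tight junction genes and 2 of 10 at gap junction genes. Of the same 42, ΔHMG-SOX9 closed 15 (35.7%, against 18.4% of all regions) and ΔTA-SOX9 14 (33.3%, against 19.2%). AFOS closed 13 (31.0%, against 17.3%), SOX9+AFOS 15 (35.7%, against 34.8%) and SOX9+ARID1a 1 (2.38%, against 20.5%). At these cadherins, WT-SOX9 opened 10 of 21 absent regions (47.6%). Closed regions were weak in noDOX, with a median score of 5.36 (range 3.09 to 16.6), against 17.7 (range 3.23 to 112) for the 171 kept. The strongest closed region, over a Tjp1 exon, scored 16.6 in noDOX, 25.4 in ΔHMG-SOX9, 43.6 in ΔTA-SOX9, 36.9 in AFOS and 12.2 in SOX9+ARID1a, and had no peak in WT-SOX9, SOX9+AFOS or any in vivo list. A region between Dsc2 and Dsc3 followed the same order of lists, at 14.9, 5.62, 9.63, 6.06 and 12.8, and a Dsc3 intron region scored 11.1, 5.77, 19.3, 16.5 and 5.39. All 3 were thus without a peak in WT-SOX9 and SOX9+AFOS and open in the other 5 culture lists. The class as a whole did not follow these 3. Of its 55 regions, ΔHMG-SOX9 also closed 29 (52.7%, against 42.2% of all regions closed by WT-SOX9). ΔTA-SOX9 also closed 28 (50.9%, against 37.7%) and AFOS 27 (49.1%, against 36.9%). SOX9+AFOS also closed 37 (67.3%, against 74.5%) and SOX9+ARID1a 11, against 43.3%.

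The Jup intron region shown above scored 10.9 in noDOX, 4.41 in ΔHMG-SOX9, 7.54 in ΔTA-SOX9, 7.47 in AFOS and 6.9 in SOX9+ARID1a with no peak in WT-SOX9 or SOX9+AFOS, whereas in vivo it was open throughout, at 5.33 to 8.72. Of the regions opened by WT-SOX9, the strongest lay in a Ctnna1 intron, 45061 bp from the start, and scored 22.9 in WT-SOX9, 10.8 in SOX9+AFOS and 7.07 in SOX9+ARID1a and nothing in the other 9 lists. A second Ctnna1 intron region scored 22.1 in WT-SOX9, 17.5 in SOX9+AFOS, 34.9 in SOX9+ARID1a, 4.83 in ΔHMG-SOX9 and 3.18 in AFOS, and was open in vivo from D0 (13.3) and highest at W2 (31.5). The Tjp1 intron region shown above scored 17.4 in WT-SOX9 and 10.6 in SOX9+ARID1a alone. SOX letters were present in 9 of the 35 opened regions (25.7%, against 16.6% of all regions opened by WT-SOX9) and in 2 of the 55 closed ones (3.64% against 3.61%).

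**Figure D4:**
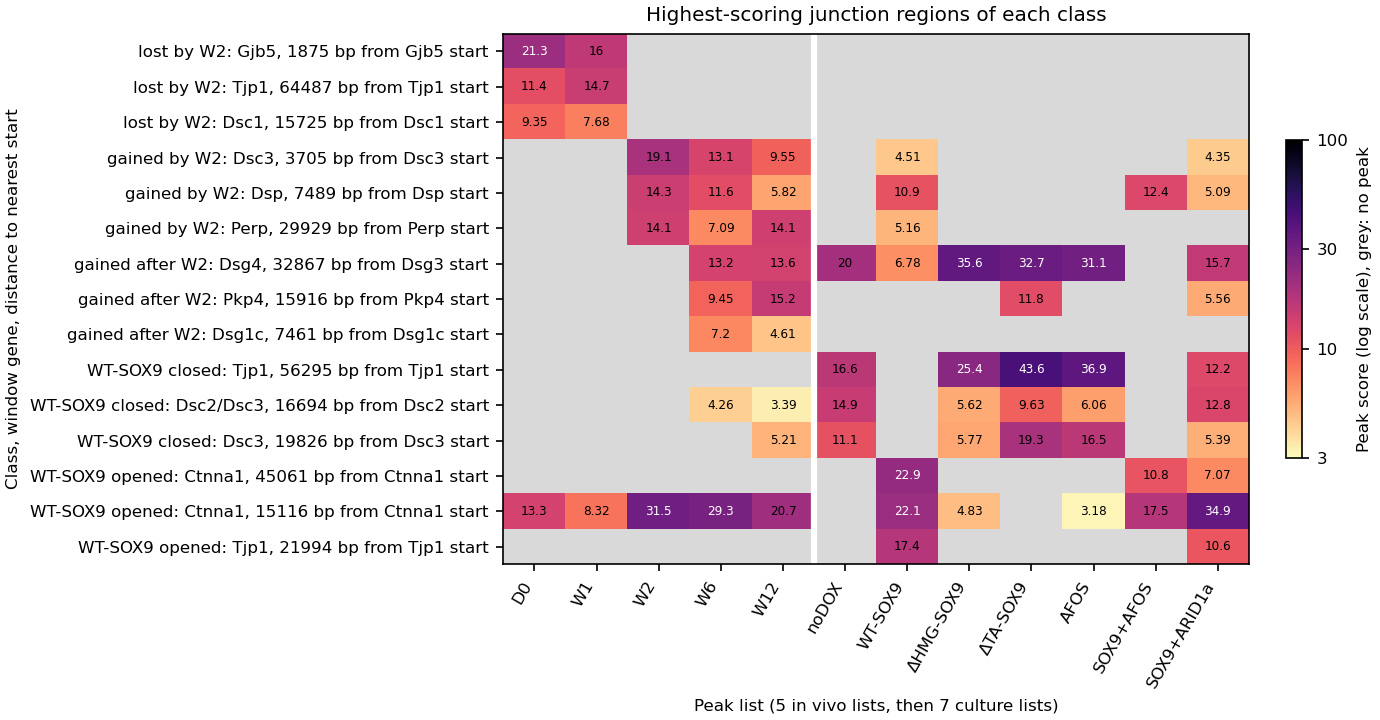
Peak score (log colour scale, value printed, grey where there was no peak) of the 3 highest-scoring junction regions of each class in the 12 lists, with the distance to the nearest start in bp. The 3 lost regions have peaks only at D0 and W1, and the 3 regions closed by WT-SOX9 are grey in WT-SOX9 and SOX9+AFOS and filled in the other 5 culture lists.

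The mutant and combination arms are given beside WT-SOX9 against the same noDOX list, which they share. ΔHMG-SOX9 closed 43 of 226 regions (19.0%, against 18.4%) and opened 20 of 127 (15.7%, against 17.7%), both near the values over all regions. ΔTA-SOX9 closed 53 (23.5%, against 19.2%) and opened 18 (14.2%, interval 9.16 to 21.3, against 32.2%), or 6 of 73 (8.22%) within the gene bodies alone. Of these 18, 4 lay in the windows of Gjb2 and Gjb6, which overlap. AFOS closed 43 (19.0%, against 17.3%) and opened 30 (23.6%, interval 17.1 to 31.7, against 34.6%), 9 of them in the Ctnna1 window. At scores of at least 5 the opened share was 30.3%, against 32.5%.

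SOX9+AFOS stood apart in the other direction. It opened 62 of 127 regions (48.8%, interval 40.3 to 57.4), against 31.2% of all regions, and closed 62 of 226 (27.4%, interval 22.0 to 33.6), against 34.8%. Regions with a peak in this arm alone count among the 127. This raises its opened share and lowers those of other arms, under the same rule for all regions. Openings reached 23 of 36 at tight junction genes (63.9%) and 15 of 27 at plaque genes (55.6%) but 5 of 21 at desmosomal cadherins (23.8%). Tjp1 gained 7, Dsg4, Jup, Perp, Ctnna1 and Cldn3 gained 5 each, and Nectin4 gained 4. The 3 strongest were chosen after their values were seen. A Jup intron region scored 47.6 in SOX9+AFOS, 14.9 in SOX9+ARID1a, 6.3 in WT-SOX9 and 4.64 in AFOS, with no peak in vivo. A region 15382 bp from the Cldn3 start scored 32.2 in SOX9+AFOS and 7.06 in SOX9+ARID1a alone. A region in the Jup window within an intron of P3h4 scored 21.2 in SOX9+AFOS and 9.46 in SOX9+ARID1a, and 4.35 at W6 and 4.24 at W12. AP1 letters were found in 3 of the 62 opened regions (4.84%, against 4.47% of all regions opened by this arm) and in 22 of the 62 closed ones (35.5%, against 35.4%).

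SOX9+ARID1a had 250 junction regions open (59.5%), against 226 in noDOX (53.8%) and 206 in WT-SOX9 (49.0%). Of all regions, 40.5%, 38.9% and 38.5% were open in these lists. With culture lists of equal length it had 222, against 226 in SOX9+AFOS and 216 in noDOX, where all regions had 38.7%, 39.8% and 40.4%. Where a peak had to cover at least 50% of a region it had 181, against 185 in noDOX, and all regions had 29.0% and 31.1%. It closed 21 of 226 (9.29%, interval 6.16 to 13.8), against 20.5% of all regions, and opened 45 of 127 (35.4%, interval 27.7 to 44.1), against 28.8%. At desmosomal cadherins it closed 1 of 42 regions, where WT-SOX9 closed 16. Under the coverage rule these arms had 32 and 33 cadherin regions open, against 35 in noDOX, where the main count gave 46, 36 and 42. The closed share over all junction regions under that rule was 31.4%, against 39.7% of all regions. The regions closed in the main count included the start-site region of Pkp2 and the Tjp3 region 119 bp from a start. Peak names in the lists of AFOS, of SOX9+AFOS and of SOX9+ARID1a record fragments as input, whereas those in the other lists do not. Peak calling and construct cannot be told apart for these arms.

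**Figure D5:**
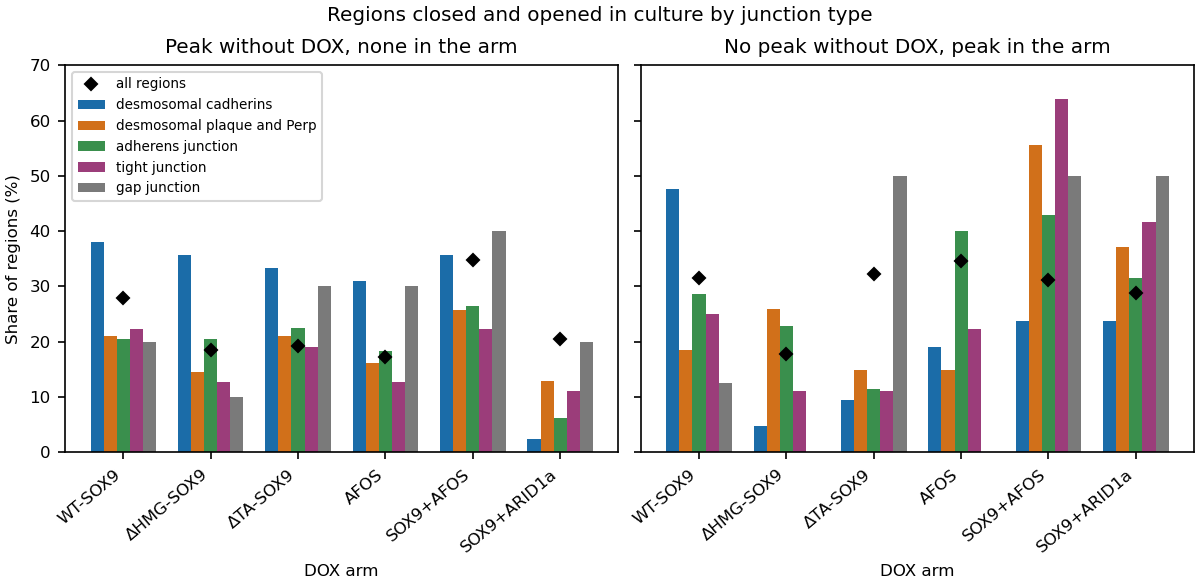
Share (%) of noDOX regions closed (left) and of regions with a peak in some DOX arm but not in noDOX opened (right), for each DOX arm and the 5 junction groups (bars), with the share over all regions (diamonds). Desmosomal cadherins have the tallest closing bars in WT-SOX9 (38.1%), ΔHMG-SOX9 (35.7%), ΔTA-SOX9 (33.3%) and AFOS (31.0%) and the shortest in SOX9+ARID1a (2.38%). Tight junction genes have the tallest opening bar in SOX9+AFOS (63.9%).

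Across both systems, 93 of the 420 regions (22.1%) were open in all 12 lists, against 14.1% of all regions. Peaks in vivo alone were found in 67 (16.0%, against 27.9% of all regions), in culture alone in 121 (28.8%, against 29.1%) and in both in 232 (55.2%, against 43.0%). Static in vivo regions had a noDOX peak in 126 of 154 cases (81.8%), against 74.7% of all static regions. Of the regions open at D0, at W2 and in noDOX, WT-SOX9 closed 16 of 133 in culture, against 13.6% of all such regions. A list of 16 further junction genes (among them Cdh1, Ctnnb1, Cgn, Pard3, Ppl and Evpl) held 256 regions, of which 89 of 201 in vivo regions were static (44.3%), 7 of 120 were lost by W2 and not regained (5.83%) and 17 of 201 were gained by W2 and kept (8.46%). In culture, WT-SOX9 closed 27 of their 122 noDOX regions (22.1%), SOX9+AFOS opened 26 of 67 (38.8%) and SOX9+ARID1a closed 9 of 122 (7.38%).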

How the data were processed

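ATAC-seq was carried out on 24 samples in 12 groups of 2. Per the study's methods and notes, the authors aligned reads to GRCm38 (Bowtie2 2.2.9, Picard 2.3.0 and SAMtools 1.9 are named), merged the alignments of both replicates and called peaks with MACS2 2.1.1, keeping duplicate reads. The deposited lists hold a normalized peak score of at least 3, scaled within a list, and in vivo also the −log10 q-value that the authors' caller gave. The lowest −log10 q-value differed between lists, from 4.21 (W2) to 14.5 (D0), so a score of 3 is not equal evidence in each.

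Peaks of all 12 lists sharing 1 bp or more were joined into regions. A region was static when it had a peak in all 5 in vivo lists, lost by W2 and not regained when it had a peak at D0 and none from W2 on, gained by W2 and kept when it had none at D0 and W1 and one at W2, W6 and W12, and gained after W2 when it had peaks at W6 and W12 alone, whatever the culture lists held. Opened and closed compare an arm with noDOX. The share opened is taken over regions without a noDOX peak that had a peak in some DOX arm. Between in vivo lists, the share opened is taken over regions absent from the earlier list with a peak in some other in vivo list. A list thus adds to the regions over which its own opened share is taken. Intervals of shares are 95% Wilson intervals and take in counting error alone. Read depth is unknown, and with merged replicates no spread between replicates could be had, so no test was run. Letters of 5 motifs were sought in the central 200 bp. Python 3.11.15, pandas 2.3.3 and numpy 2.4.6 were used, and the classification was tested on simulated lists. Some further junction genes are not reported here. The genes, lists, classes and alternatives were chosen with earlier results of these data known. Regions named with their scores are the 3 with the highest score in the list that defines each class, the start-site region of each gene, the 3 strongest regions opened by SOX9+AFOS, the regions whose sequences are shown, and 2 regions gained by W2 and kept that had high noDOX scores, chosen after their values were seen.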

Additional observations from a re-analysis of the deposited data

How the results depend on the processing

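No paired analysis was possible because the authors merged both replicates of a group before calling peaks, and for the same reason no replicate could be left out. Of the shares by class and by arm, those given first moved outside the 95% Wilson interval of the reported value, and the cause was not tested. The static share (51.5%) was 45.5% with a common minimum −log10 q-value, 37.5% when a peak had to cover at least 50% of a region and 44.3% away from start sites. The share lost by W2 and not regained (4.46%) was 9.52% at scores of at least 5, 10.4% with lists of equal length and 13.4% with the common q minimum. That minimum gave 3.56% gained by W2 and kept (7.36%), and lists of equal length 2.17% gained after W2 (4.01%) and 16.0% opened by AFOS (23.6%). The 50% coverage rule gave 28.6% closed by ΔHMG-SOX9 (19.0%), 26.5% closed by AFOS (19.0%) and 31.4% closed by SOX9+ARID1a (9.29%), where all regions had 32.3%, 25.1% and 39.7%. Gene bodies without flanks gave 8.22% opened by ΔTA-SOX9 (14.2%) and 6.06% closed by SOX9+ARID1a. Of the shares between successive lists, opened D0 to W1 (27.8%) was 11.8%, closed D0 to W1 (8.91%) 14.4%, opened W1 to W2 (47.7%) 24.3%, closed W1 to W2 (20.4%) 32.4%, opened W2 to W6 (42.7%) 28.1% and closed W6 to W12 (11.8%) 1.83% with the q minimum. Opened W2 to W6 was 29.6%, closed W2 to W6 (5.24%) 11.8% and opened W6 to W12 (53.2%) 37.5% with lists of equal length. Closed W2 to W6 was 11.05% and opened W6 to W12 36.8% at scores of at least 5, closed W1 to W2 37.5% under the 50% coverage rule, and opened W6 to W12 67.3% without W1. The log2 ratio of gained to lost regions changed sign for D0 to W1 (0.58) to -2.27 with the common q minimum, for W1 to W2 (-0.03) to 0.52 at scores of at least 5 and 0.0304 with the systems merged separately, for W6 to W12 (0.24) to -0.13 at scores of at least 5, and for opened to closed in SOX9+ARID1a (1.10) to -0.10 under the 50% coverage rule.

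Against all regions, the junction share kept its side for static regions in all 7 alternatives that changed it (8.83 to 13.6 points higher), for regions lost by W2 and not regained in all 6 (differences of -6.69 to -0.949 points), and in all 5 for SOX9+AFOS openings (15.2 to 18.9), ΔTA-SOX9 openings (-19.0 to -12.9), AFOS openings (-12.7 to -2.19) and SOX9+ARID1a closings (-13.95 to -8.39). It changed side for D0 to W1 and W1 to W2 gains under the q minimum, for WT-SOX9 closings at scores of at least 5, and in 2 or 3 alternatives for ΔHMG-SOX9 openings and closings, AFOS closings and regions gained by W2 and kept.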

Other observations

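Vcl, the actin-linking vinculin gene among the further junction genes, had 14 of its 19 regions open in the grafted W12 skin and 6 to 8 in the 4 earlier lists. Pard3, a cell polarity gene with 74 regions, had 26 open at D0 and 46 at W6, and 43 in SOX9+ARID1a against 29 to 32 in the other culture lists. The start region of Cldn8 scored 20.6 at D0 and 14.8 at W1, 49.9 at W2, and 33.7 and 15.2 in the 2 later lists. In culture it had peaks only in WT-SOX9 (3.04) and SOX9+AFOS (3.41). Over all regions, 40.5% were open at D0, 44.1% at W2, 53.2% at W6 and 50.5% at W12, so that counts by gene also differ with the length of the lists. In culture, 40.5% of all regions were open in SOX9+ARID1a and 35.7 to 43.7% in the other lists. These genes were picked out after their values were seen.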
